A study of Homo sapiens with 12 samples.

Results

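The Wnt target and feedback genes described here are 10 genes that beta-catenin is known to switch on, chosen by symbol and matched to the Ensembl identifiers of the count table: NOTUM, APCDD1, RNF43, ZNRF3, LGR5, AXIN2, NKD1, TCF7, SP5 and ASCL2. They are 10 of the 19901 protein-coding genes counted. These genes and the lists used below were chosen with earlier results of these data known. Shares of all tested genes beside their counts are therefore background and no test of enrichment. Reads were sufficient to test 6 of them (NOTUM, AXIN2, RNF43, ZNRF3, NKD1 and TCF7), among 13093 genes tested in all, where a tested gene had at least 10 counts in at least 6 libraries. SP5, LGR5, ASCL2 and APCDD1 were under that minimum and are given as counts.

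The data came from RNA-Seq of HCT116 cells, an established human colorectal carcinoma line that carries a stabilising mutation in CTNNB1, the gene for beta-catenin. All 12 libraries came from a single edited clone (clone D5), in which KAP1, the chromatin protein encoded by TRIM28, is fused to a degradation tag, so the results describe 1 clone and were not compared with a second line. The compound dTAG recruits the tagged protein to a ubiquitin ligase for removal, and DMSO is its solvent. The study asked whether serum acts on transcription in another way once KAP1 is gone.

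The 4 groups had 3 libraries each and differed in drug and serum. In every group the cells spent 48 h without serum, and DMSO or dTAG was added 8 h before the serum step. DMSO-S0 received DMSO and no serum, and DMSO-S30 received DMSO and then 30 min of serum. The dTAG-S0 and dTAG-S30 groups were handled in the same way with dTAG in place of DMSO. A comparison of dTAG with DMSO therefore shows the effect of drug and KAP1 loss together, since no group of untagged cells given dTAG was analysed here.

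Wnt ligands bind Frizzled and LRP5/6 receptors and stop the destruction complex, built on APC and AXIN, from marking beta-catenin for degradation. Beta-catenin that escapes enters the nucleus, binds TCF/LEF factors and turns on target genes, many of which encode inhibitors of the pathway itself. In the intestine this loop sustains the stem cells of the crypt, and in most colorectal cancers it is locked on by mutation of APC or CTNNB1.

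TCF/LEF factors recognise the short words CTTTGAT and CTTTGAA. These words were looked for on both strands of the 250 bases before each start in the RefSeq promoter table (GRCh38.p14). The table held 6 promoter entries for 4 of the 10 genes: SP5, APCDD1, and TCF7 and RNF43 with 2 entries each. Both TCF7 entries and the second RNF43 entry lie inside the gene limits used for counting, not upstream of them. The SP5 promoter is shown because it held 3 matches and the other 5 entries held 0. A stretch upstream of RNF43, the gene with the largest serum change among the 6 tested, is shown beside it; both were picked after the values were seen. NOTUM, AXIN2, ZNRF3, NKD1, LGR5 and ASCL2 are named only. The sequences run 5′ to 3′ on the gene's strand, with the matched words in capitals.
SP5 (chr2:170715087-170715336, plus strand): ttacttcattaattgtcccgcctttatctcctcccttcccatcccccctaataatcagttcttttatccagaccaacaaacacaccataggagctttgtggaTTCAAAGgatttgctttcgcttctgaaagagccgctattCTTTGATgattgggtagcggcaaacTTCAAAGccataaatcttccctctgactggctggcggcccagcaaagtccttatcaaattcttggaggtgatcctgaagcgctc
RNF43 (chr17:58417596-58417784, minus strand): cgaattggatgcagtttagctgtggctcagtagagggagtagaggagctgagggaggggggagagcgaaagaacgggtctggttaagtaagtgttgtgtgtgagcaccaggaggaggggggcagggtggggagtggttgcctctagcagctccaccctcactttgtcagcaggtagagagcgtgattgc
In SP5 the word CTTTGAT lay 109 to 103 bases before the RefSeq start. CTTTGAA lay on the opposite strand (read here as TTCAAAG) at 148 to 142 and at 84 to 78 bases before that start. The RefSeq window ends at 170715336, while the gene limits given below begin at 170715351. CTTTGAT was present in 2.26% of 35116 promoters of the same length, CTTTGAA in 3.8%, and either in 5.94%. There were 7 promoters with 3 or more matches (0.0199%). A match describes letters and not a binding site, and the absence of a match says only that these letters are not in this window.

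Library totals ranged from 20537682 to 26278707 counts, of which 7.97% to 9.37% fell on the ERCC spike-ins (synthetic RNAs added in a fixed amount). The levels below are normalised CPM, counts relative to the library size after upper-quartile scaling, and 3 counts corresponded to 0.125 to 0.159 CPM. TRIM28 RNA averaged 96.9 ± 4.74 CPM (SD, n = 3) in DMSO-S0 and 92.6 ± 6.27 in dTAG-S0, with 115 ± 5.71 in DMSO-S30 and 112 ± 7.87 in dTAG-S30. Its adjusted p for dTAG against DMSO was 0.789 without serum and 0.888 with serum in edgeR's quasi-likelihood test, so these transcript counts do not measure the loss of the protein. The 8 epithelial markers were all tested and summed to 1254 to 1774 CPM, which fits the label of an epithelial line, while 6 leukocyte markers summed to 4.29 to 6.65 CPM and 4 endothelial markers to 1.89 to 3.97 CPM.

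The 6 tested genes covered a wide range of levels. Reads were counted over whole genes with introns, so levels are given as CPM per kb of gene. The order between genes depends on this division by gene length, which was 9.34 kb for NOTUM and 174 kb for ZNRF3. In CPM alone the mean was 101 for ZNRF3, 97.0 for RNF43, 94.1 for AXIN2 and 6.52 for NOTUM. The per-kb order is therefore not an order of transcript levels. Per kb AXIN2 was highest, with a mean of 2.84 CPM per kb over the 12 libraries (range 2.32 to 3.30), above 78.7% of the tested genes. RNF43 followed at 1.49 CPM per kb (1.26 to 1.79). These ranges did not overlap each other or those of the genes below. TCF7 at 0.737 CPM per kb (0.646 to 0.832), NOTUM at 0.698 (0.436 to 0.998) and ZNRF3 at 0.580 (0.514 to 0.663) overlapped and are not separated in order. NKD1 stood under all of these at 0.370 CPM per kb (0.339 to 0.396). SP5 was the highest of the genes not tested, at 0.113 CPM per kb (0.0336 to 0.234).

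**Figure D1:**
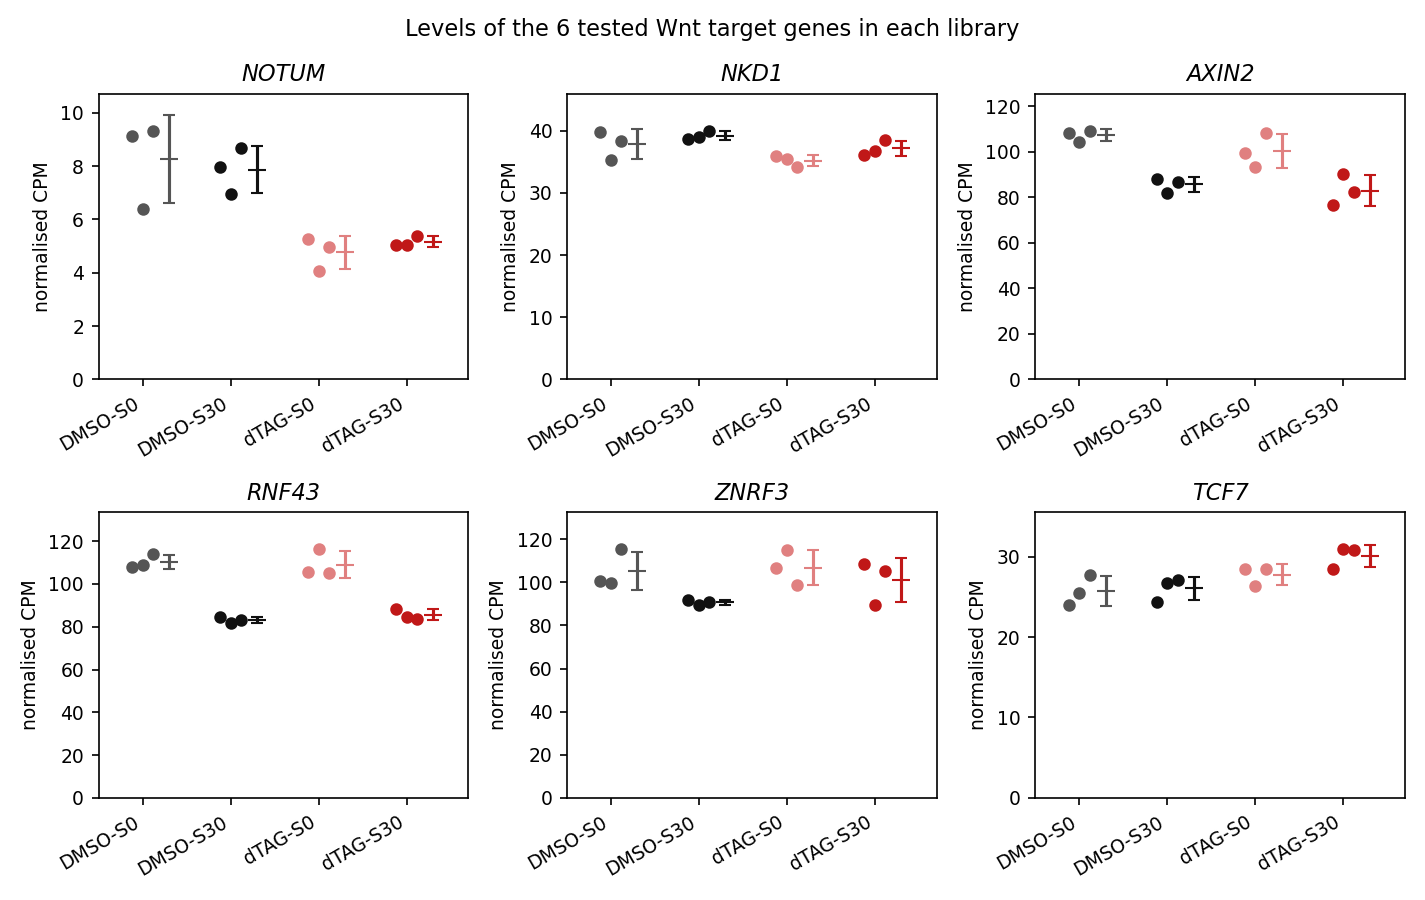
Normalised CPM (vertical axes, from 0) of the 6 tested genes in each of the 12 libraries, by group (horizontal axes); points are libraries, and the bar beside each group is the mean ± SD of 3 libraries. NOTUM lies between 6.38 and 9.32 CPM in DMSO-treated cells and between 4.07 and 5.39 CPM in dTAG-treated cells, whereas AXIN2 and RNF43 are lower in both groups given serum.

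KAP1 depletion lowered NOTUM, and no other tested gene of the set passed the test in either direction. NOTUM encodes a secreted enzyme that removes the lipid from Wnt ligands and so inactivates them outside the cell. The members were chosen with earlier results of these data known, so the shares given here are background and no test of enrichment. The count was 1 of 6 lower without serum, where 0.435% of all tested genes were called lower (1.28% in either direction). With serum it was again 1 of 6 lower, where 0.626% of all tested genes were called lower (1.21% in either direction). In the average of both serum levels it was 1 of 6 lower, against 2.26% of all tested genes lower, 2.22% higher and 4.48% in either direction. The median log2 fold change of the 6 genes was -0.06 without serum, 0.00 with serum and -0.03 in the average, beside medians of -0.01, 0.00 and 0.00 over all tested genes.

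NOTUM (ENSG00000185269.11) lies on the minus strand of chromosome 17, from 81952507 to 81961840 in hg38. Its level in the DMSO-S0 libraries was 9.12, 6.38 and 9.32 CPM, from 172, 139 and 190 counts. In the dTAG-S0 libraries it was 5.27, 4.07 and 4.95 CPM, from 112, 94 and 119 counts. Every dTAG-S0 library was below every DMSO-S0 library, an arrangement that 9.23% of all tested genes shared (8.5% had the reverse). The log2 fold change was -0.78 (SE 0.153, 95% interval -1.09 to -0.46, adjusted p = 0.00612, edgeR), so that NOTUM fell by 41.7%. This call held in all 9 other settings and with each of the 12 libraries left out.

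With serum the DMSO-S30 libraries held 7.95, 6.96 and 8.69 CPM of NOTUM, from 162, 158 and 180 counts. The dTAG-S30 libraries held 5.03, 5.05 and 5.39 CPM, from 112, 113 and 119 counts. The groups again did not overlap, as in 8.1% of all tested genes, and the dTAG-S30 libraries were close to one another. The log2 fold change was -0.63 (SE 0.155, 95% interval -0.94 to -0.31, adjusted p = 0.0386, edgeR), a fall by 35.2%. This second call was lost without DMSO-S30 replicate 1 (adjusted p = 0.0657), without DMSO-S30 replicate 3 (0.231), and without dTAG-S30 replicates 1 (0.0618), 2 (0.113) or 3 (0.0543), with edgeR log2 fold changes from -0.54 to -0.64. It was also lost with library sizes taken from the spike-ins alone (log2 fold change -0.61, edgeR adjusted p = 0.132).

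Averaged over both serum levels the log2 fold change of NOTUM was -0.70 (SE 0.106, adjusted p = 0.000108, edgeR), which was the 30th from the lowest of the 13093 tested genes. It remained past the threshold with each of the 12 libraries left out in turn and in all 8 other settings run for this comparison. The size of the fall did not differ detectably between serum levels, with an interaction (the difference between the serum effects in dTAG-treated and DMSO-treated cells) of 0.15 (95% interval -0.31 to 0.61). Serum left NOTUM with a log2 fold change of -0.05 in DMSO-treated cells (95% interval -0.35 to 0.26) and 0.10 in dTAG-treated cells (-0.23 to 0.43). In GENCODE v44 an antisense lncRNA, ENSG00000235296, overlaps NOTUM over 3661 bp, and the strand setting of the counting is not given in the sources used here, so reads of the antisense RNA may be included.

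**Figure D2:**
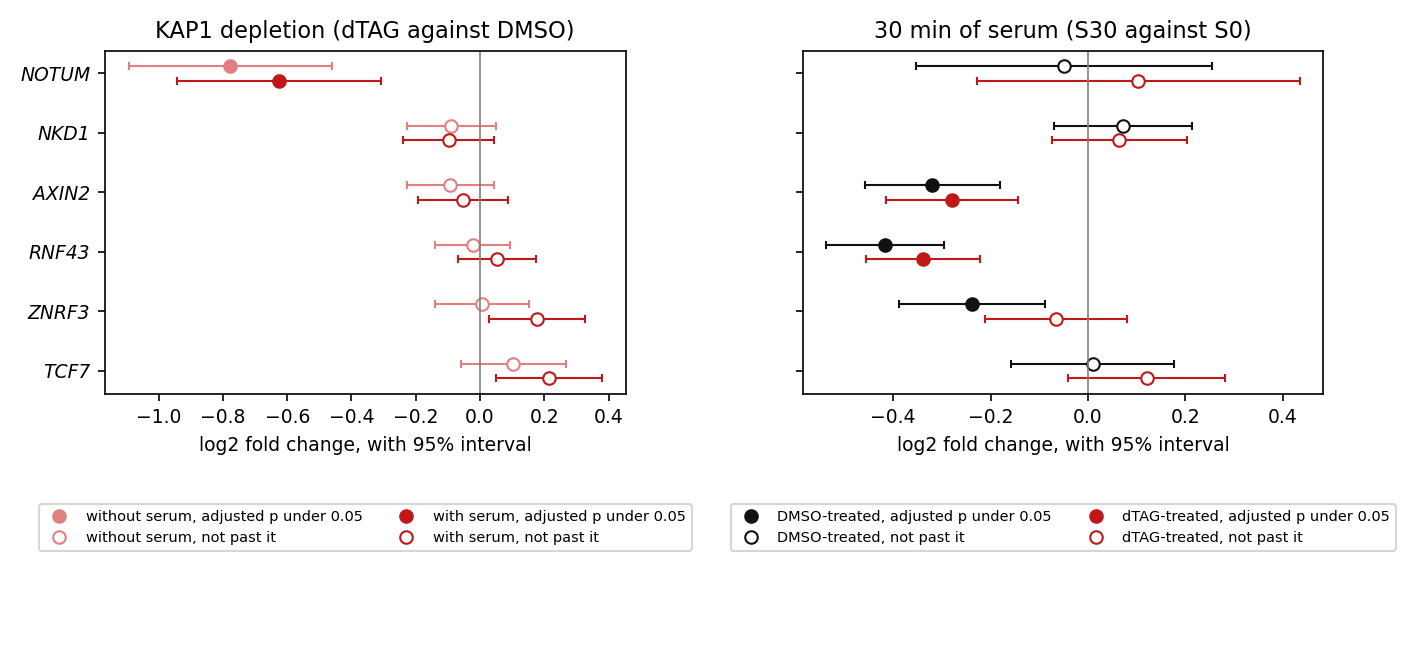
Log2 fold changes (horizontal axes) with 95% intervals for the 6 tested genes (rows), for dTAG against DMSO at each serum level (left) and for serum against none in each treatment (right); filled points have an adjusted p under 0.05. On the left NOTUM alone is filled, at -0.78 and -0.63, and on the right AXIN2 and RNF43 are filled in both treatments and ZNRF3 in DMSO-treated cells.

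APCDD1, a membrane glycoprotein that binds Wnt and its receptors and inhibits signalling, was not detectable at this depth. It had 1 read in 12 libraries, in a DMSO-S30 library, over the gene on the plus strand of chromosome 18 (10454628 to 10489948).

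The receptor-level genes did not change detectably with KAP1 depletion. RNF43 and ZNRF3 encode membrane E3 ubiquitin ligases that remove Frizzled receptors from the cell surface, and LGR5 encodes an R-spondin receptor that counters them and marks intestinal stem cells. RNF43 (chromosome 17, 58352500 to 58417595, minus strand) had 108, 109 and 114 CPM in DMSO-S0 and 106, 116 and 105 CPM in dTAG-S0. With serum it had 84.8, 81.7 and 83.3 CPM in DMSO-S30 and 88.5, 84.7 and 83.8 CPM in dTAG-S30. The DMSO and dTAG libraries overlapped at both serum levels, whereas every library given serum was below every library without it. The edgeR log2 fold change for dTAG was -0.02 without serum (95% interval -0.14 to 0.09, adjusted p = 0.921) and 0.05 with serum (-0.07 to 0.18, adjusted p = 0.814). In GENCODE v44 the RNF43 gene overlaps SUPT4H1 over 594 bp of the same strand. The antisense lncRNA TSPOAP1-AS1 overlaps it over 63267 bp, and a read-through gene of the same strand, ENSG00000285897, over 65096 bp. The lncRNA and the read-through gene were not among the genes counted. The strand setting is not given, so RNF43 reads may belong to these genes over nearly its whole length.

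ZNRF3 (chromosome 22, 28883592 to 29057487, plus strand) had 100.5, 99.8 and 115 CPM in DMSO-S0 and 107, 115 and 98.7 CPM in dTAG-S0. With serum it had 91.7, 89.4 and 91.0 CPM in DMSO-S30 and 108, 89.3 and 105 CPM in dTAG-S30. The third DMSO-S0 library and the second dTAG-S0 library were high and the second dTAG-S30 library was low. The log2 fold change for dTAG was 0.01 without serum (95% interval -0.14 to 0.15) and 0.18 with serum (0.03 to 0.33), where the unadjusted p of 0.0217 became an adjusted p of 0.344 in edgeR.

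LGR5 (chromosome 12, 71439770 to 71586310, plus strand) had 16 reads in all 12 libraries, with 0 to 4 in any library. Its reads summed to 3 in DMSO-S0, 5 in DMSO-S30, 5 in dTAG-S0 and 3 in dTAG-S30, too few for a difference to be detectable at this depth.

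The cytoplasmic feedback genes AXIN2 and NKD1 were likewise not called with KAP1 depletion. AXIN2 encodes a scaffold of the destruction complex and is widely used as a readout of beta-catenin activity, and NKD1 encodes a protein that binds Dishevelled and dampens the signal. AXIN2 (chromosome 17, 65528563 to 65561647, minus strand) had 108, 105 and 109 CPM in DMSO-S0 and 99.4, 93.5 and 108 CPM in dTAG-S0. With serum it had 88.2, 82.1 and 86.8 CPM in DMSO-S30 and 76.7, 90.1 and 82.3 CPM in dTAG-S30. Treatments overlapped at both serum levels. The log2 fold change for dTAG was -0.09 without serum (95% interval -0.23 to 0.04, edgeR adjusted p = 0.637) and -0.05 with serum (-0.19 to 0.09, adjusted p = 0.851), so the interval at S0 reached a 14.6% fall and a 2.97% rise. In GENCODE v44 a second protein-coding gene on the same strand, ENSG00000266076, shares 23546 bp with AXIN2 (33.1 kb) and held a mean of 138 counts. How reads in the shared stretch were assigned is not given in the sources used here. AXIN2 values, and the ratios to AXIN2 below, may therefore hold reads of that gene or lack some of their own.

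NKD1 (chromosome 16, 50548330 to 50649249, plus strand) had the smallest spread relative to its mean of the 6 across the libraries, between 34.2 and 40.0 CPM. Its mean was 37.8 ± 2.37 CPM in DMSO-S0, 39.2 ± 0.708 in DMSO-S30, 35.2 ± 0.900 in dTAG-S0 and 37.1 ± 1.21 in dTAG-S30 (SD, n = 3). The 3 dTAG-S30 libraries were all below the 3 DMSO-S30 libraries, an arrangement that 8.1% of all tested genes shared, and the dTAG-S30 libraries were above the dTAG-S0 libraries, as in 12.6% of all tested genes. Neither difference passed the edgeR test (log2 fold change -0.10 with adjusted p = 0.684, and 0.06 with adjusted p = 0.529).

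Among the transcription factors only TCF7 had enough reads to test, and it was not called. TCF7 encodes the TCF1 protein, which binds DNA together with beta-catenin. TCF7 (chromosome 5, 134114711 to 134151865, plus strand) had 24.0, 25.4 and 27.8 CPM in DMSO-S0 and 28.5, 26.3 and 28.5 CPM in dTAG-S0. With serum it had 24.4, 26.7 and 27.0 CPM in DMSO-S30 and 28.5, 30.9 and 30.8 CPM in dTAG-S30. The groups overlapped without serum, and with serum every dTAG library was above every DMSO library, as in 7.62% of all tested genes. The edgeR log2 fold change for dTAG was 0.10 without serum (adjusted p = 0.666), 0.21 with serum (SE 0.0804, unadjusted p = 0.0134, adjusted p = 0.281) and 0.16 in the average (adjusted p = 0.104). The average was past the threshold when DMSO-S0 replicate 3 was left out (log2 fold change 0.19, edgeR adjusted p = 0.0379). SKP1, a gene with a mean of 2980 counts, overlaps TCF7 over 2931 bp on the opposite strand in GENCODE v44. How reads in a shared stretch were assigned is not given in the sources used here. TCF7 values may therefore hold SKP1 reads or lack some of their own.

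SP5, a zinc-finger factor that beta-catenin induces and that damps other Wnt target genes, had 79 reads in all (chromosome 2, 170715351 to 170718078, plus strand). The DMSO-S0 libraries held 7, 2 and 13 reads and the DMSO-S30 libraries 6, 10 and 9. The dTAG-S0 libraries held 6, 10 and 4 reads and the dTAG-S30 libraries 3, 5 and 4. The group sums were 22, 25, 20 and 12 reads in that order, and dTAG-S30 lay below DMSO-S30 in every library, as in 8.1% of all tested genes. Without the count minimum the log2 fold change for dTAG with serum was -1.15 (SE 0.67, adjusted p = 0.632 in edgeR), so no difference was detectable at this depth. ASCL2 (chromosome 11, 2268495 to 2270952, minus strand), a factor of intestinal stem cells, had 1 read in 12 libraries, in a DMSO-S0 library.

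**Figure D3:**
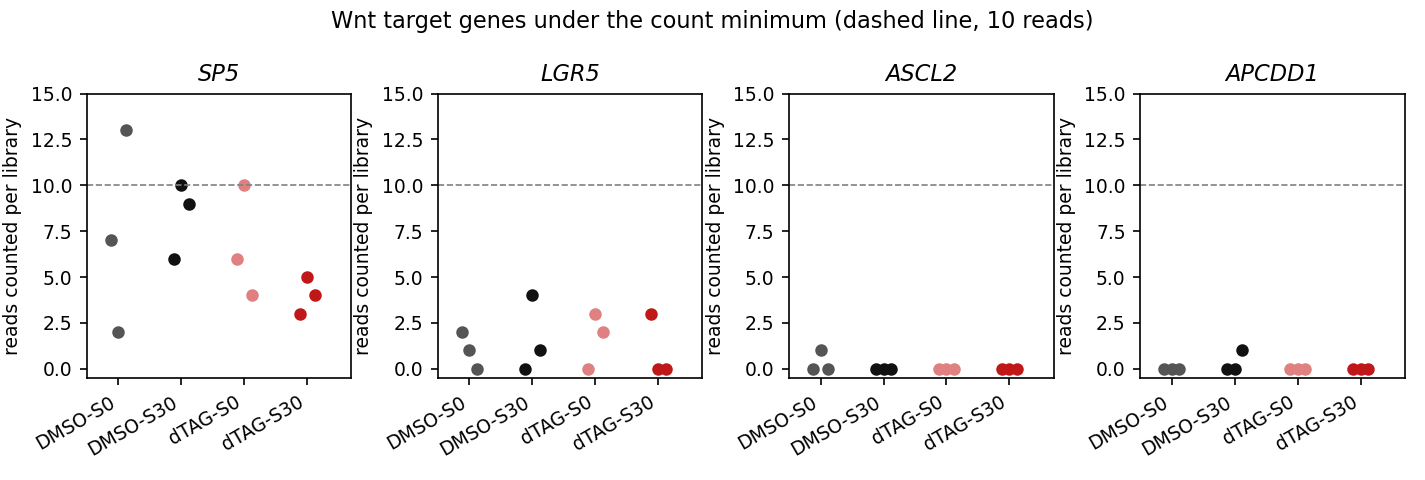
Reads counted per library (vertical axes) for the 4 genes under the count minimum, by group; the dashed line marks the minimum of 10 reads. SP5 reaches 13 reads in a DMSO-S0 library and stays at 3 to 5 in dTAG-S30, LGR5 does not exceed 4, and ASCL2 and APCDD1 have a single read each.

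Serum for 30 min lowered AXIN2 and RNF43 in both treatments and ZNRF3 in DMSO-treated cells. In DMSO-treated cells 3 of 6 were called lower and 0 higher, where 17% of all tested genes were called lower and 9.15% higher (26.1% in either direction). In dTAG-treated cells 2 of 6 were called lower and 0 higher, where 15.3% of all tested genes were called lower and 9.04% higher (24.3% in either direction). The median log2 fold change of the 6 genes was -0.14 with DMSO and 0.00 with dTAG, beside medians of -0.07 and -0.06 over all tested genes. The split of all calls depended on the scaling, with 1198 of 3420 higher in DMSO-treated cells here, 1690 of 2749 with TMM scaling and 1175 of 1766 with spike-in library sizes. In dTAG-treated cells 1184 of 3184 were higher here, 1584 of 2562 with TMM and 1029 of 1646 with spike-in sizes.

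RNF43 moved furthest with serum. It averaged 110 ± 3.27 CPM in DMSO-S0 and 83.3 ± 1.52 in DMSO-S30 (SD, n = 3), a log2 fold change of -0.42 (SE 0.0587, adjusted p = 4.83e-06, edgeR). In dTAG-treated cells it averaged 109 ± 6.26 and 85.7 ± 2.50 CPM, a change of -0.34 (SE 0.0572, adjusted p = 7.01e-05). AXIN2 followed, from 107 ± 2.51 to 85.7 ± 3.2 CPM with DMSO, a log2 fold change of -0.32 (SE 0.0674, adjusted p = 0.000846). With dTAG it went from 100.4 ± 7.46 to 83.0 ± 6.72 CPM, a change of -0.28 (SE 0.0660, adjusted p = 0.00276, edgeR). For both genes every library given serum was below every library of the same treatment without it, an arrangement that 30.6% of all tested genes shared with DMSO and 24.9% with dTAG. Both genes were called lower in both treatments in each of the 9 other settings and with each library left out.

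ZNRF3 fell from 105 ± 8.77 to 90.7 ± 1.16 CPM in DMSO-treated cells (log2 fold change -0.24, SE 0.0728, adjusted p = 0.0170, edgeR). The call was lost with TMM scaling (log2 fold change -0.17, adjusted p = 0.112), with spike-in library sizes (-0.15, 0.395) and in DESeq2 (-0.18, 0.119). In dTAG-treated cells its log2 fold change was -0.07 (95% interval -0.21 to 0.08, adjusted p = 0.540, edgeR), and -0.21 (adjusted p = 0.0127) without dTAG-S30 replicate 3. NKD1 and TCF7 were not called with serum, with log2 fold changes of 0.07 and 0.01 in DMSO-treated cells and 0.06 and 0.12 in dTAG-treated cells.

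The serum effect on these genes was not shown to differ between treatments. In the interaction 0 of 6 were called in edgeR, 0 of 6 had an unadjusted p under 0.05, and 0 were called in DESeq2, where 0.0382% of all tested genes were called in the edgeR test. The smallest unadjusted p was 0.110, for ZNRF3 (interaction 0.17, 95% interval -0.04 to 0.39, adjusted p = 1).

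The sum of 6 fibroblast markers was 12.4 to 16.4 CPM without serum and 66.2 to 85.9 CPM with serum. It was almost wholly COL1A1 (250 to 1789 counts), while LUM had 0 reads and COL1A2 at most 1 read in any library, and its part in the serum results was not tested.

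Ratios between genes of the same library do not depend on the scaling, and were computed after the values were seen. NOTUM stood at 6.10 to 8.53 counts per 100 AXIN2 counts in DMSO-S0 and at 4.35 to 5.30 in dTAG-S0. With serum the ratio was 8.48 to 10 in DMSO-S30 and 5.61 to 6.56 in dTAG-S30. At each serum level the dTAG libraries were below the DMSO libraries, and the serum groups were shifted upward, with AXIN2, the denominator, lower there. AXIN2 stood at 2.72 to 2.97 counts per NKD1 count in DMSO-S0 against 2.11 to 2.28 in DMSO-S30, and at 2.64 to 3.17 in dTAG-S0 against 2.12 to 2.45 in dTAG-S30. RNF43 stood at 2.7 to 3.09 per NKD1 count in DMSO-S0 against 2.08 to 2.19 in DMSO-S30, and at 2.94 to 3.28 in dTAG-S0 against 2.18 to 2.45 in dTAG-S30. ZNRF3 stood at 2.52 to 3 against 2.28 to 2.37 with DMSO and overlapped with dTAG, at 2.89 to 3.25 against 2.43 to 3. AXIN2 and RNF43 were thus lower relative to NKD1 in the libraries given serum, without overlap in either treatment. TCF7 stood at 22.2 to 25.4 counts per 100 AXIN2 counts in DMSO-S0 against 26.3 to 28.7 in dTAG-S0, and at 27.7 to 32.5 in DMSO-S30 against 34.3 to 37.4 in dTAG-S30. Relative to AXIN2 every dTAG library was thus above every DMSO library at both serum levels, whereas the CPM of TCF7 overlapped without serum.

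**Figure D4:**
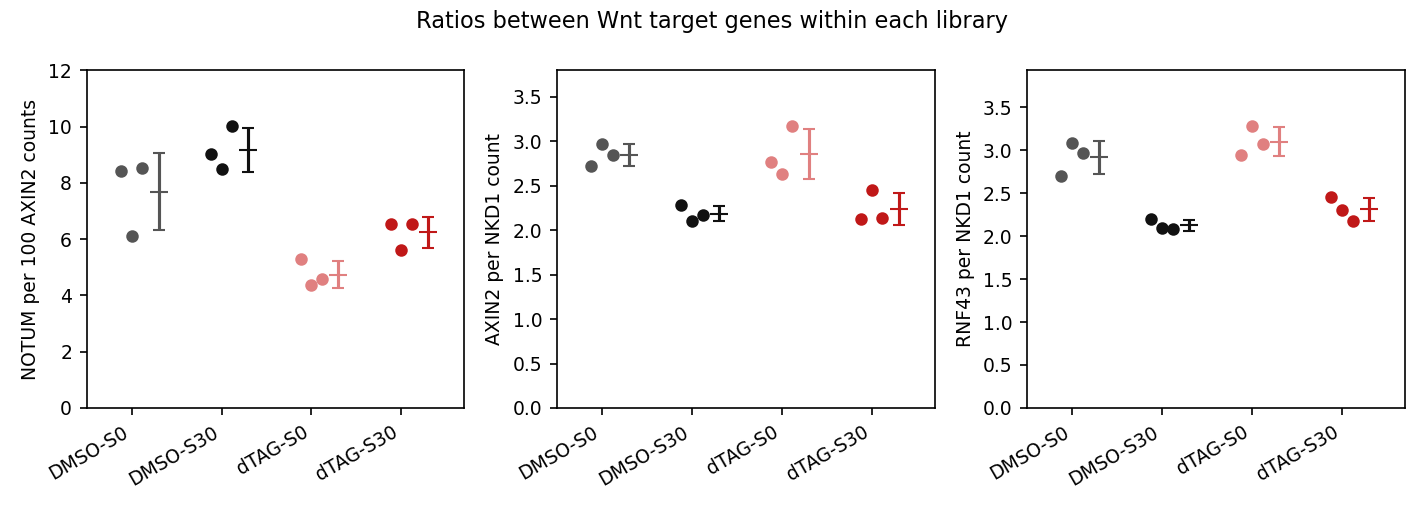
Ratios of counts within each library (vertical axes, from 0) by group; points are libraries and bars are the mean ± SD of 3. NOTUM per 100 AXIN2 counts is lower in dTAG libraries at each serum level (4.35 to 5.30 against 6.10 to 8.53 without serum), and AXIN2 and RNF43 per NKD1 count are lower with serum in both treatments.

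The 6 tested genes did not vary as a unit over the 12 libraries. Pearson's r of log2 CPM was 0.813 between AXIN2 and RNF43, 0.699 between RNF43 and ZNRF3 and 0.776 between NOTUM and NKD1, but 0.246 between NOTUM and AXIN2 and -0.523 between NOTUM and TCF7. These values describe 12 libraries that share the 4 groups and their depth, and carry no test. Over all tested genes those most like NOTUM were CDK12 (r = 0.949), MORC2 (0.919), STPG4 (0.909), ZNF462 (0.909) and SAMD11 (0.904). Those most like AXIN2 were ARL3 (r = 0.962), ZNF740 (0.953), CYP2U1 (0.952), HINFP (0.951) and TRIM32 (0.951).

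The rest of the pathway was followed in 7 lists with 154 genes, of which 113 were tested. Without serum 5 of the 113 were called with KAP1 depletion, 3 higher and 2 lower (4.42%). With serum 2 were called, both lower (1.77%), and in the average 8 were called, 4 higher and 4 lower (7.08%). The background shares were 1.28%, 1.21% and 4.48%. The lists were also chosen with earlier results of these data known, so these shares are no test of enrichment. Of the Wnt ligands (13 tested), the Wnt secretion genes (2), the receptors and R-spondin branch (15), the destruction complex and cytoplasmic signalling genes (22) and the TCF/LEF factors and nuclear cofactors (16), edgeR called 0 in each of these 3 comparisons.

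DKK1, a secreted inhibitor that blocks the LRP5/6 co-receptors, was the antagonist called with KAP1 depletion, 1 of 9 tested, and it was lower. Of all tested genes 0.435% were called lower without serum, 0.626% with serum and 2.26% in the average. DKK1 averaged 45.8 ± 8.14 CPM in DMSO-S0 and 34.8 ± 2.16 in dTAG-S0, with 63.1 ± 1.19 in DMSO-S30 and 47.7 ± 2.31 in dTAG-S30 (SD, n = 3). The log2 fold change was -0.37 without serum (SE 0.0867, adjusted p = 0.0275, edgeR), where the libraries overlapped, and -0.45 with serum (SE 0.0849, adjusted p = 0.00415), where they did not. Both calls were lost with spike-in library sizes. In the average the log2 fold change was -0.41 (edgeR adjusted p = 6.37e-05), and that call held in the 8 other settings run for it. DKK1 moved with serum in the opposite direction, by 0.51 in DMSO-treated cells (adjusted p = 6.95e-05) and 0.43 in dTAG-treated cells (adjusted p = 0.000561, edgeR). The median of the 9 antagonists for dTAG was -0.17 without serum and 0.08 with serum, on the log2 scale.

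Among 36 other beta-catenin target genes tested, KAP1 depletion raised 3 and lowered 1 without serum and lowered 1 with serum, where 0.848% of all tested genes were called higher and 0.435% lower without serum, and 0.588% higher and 0.626% lower with serum. ID2, an inhibitor of basic helix-loop-helix factors, fell by 0.49 on the log2 scale at both serum levels (adjusted p = 4.23e-05 and 3.48e-05, edgeR). Without serum JUN, a subunit of AP-1, rose by 0.69 (adjusted p = 0.000122) and PLAUR, the urokinase receptor, by 0.57 (adjusted p = 0.00882, edgeR). SOX9, an intestinal progenitor factor named after its values were seen, rose by 0.32 (adjusted p = 0.0249, edgeR), and this call was lost with spike-in library sizes. In the average of both serum levels 4 were higher (JUN, PLAUR, SOX9 and ABHD4) and 3 lower (ID2, BMP4 and SOX4, the last 2 named after their values were seen). In that average 2.22% of all tested genes were called higher and 2.26% lower. JUN differed between serum levels, since with serum its log2 fold change for dTAG was -0.25 (adjusted p = 0.0964, edgeR), from 186 ± 13.7 CPM in DMSO-S30 to 159 ± 15.5 in dTAG-S30 (SD, n = 3), so its average joins values of opposite sign. The average call of JUN was lost with spike-in library sizes, and that of SOX4 with TMM, spike-in sizes and the replicate block.

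**Figure D5:**
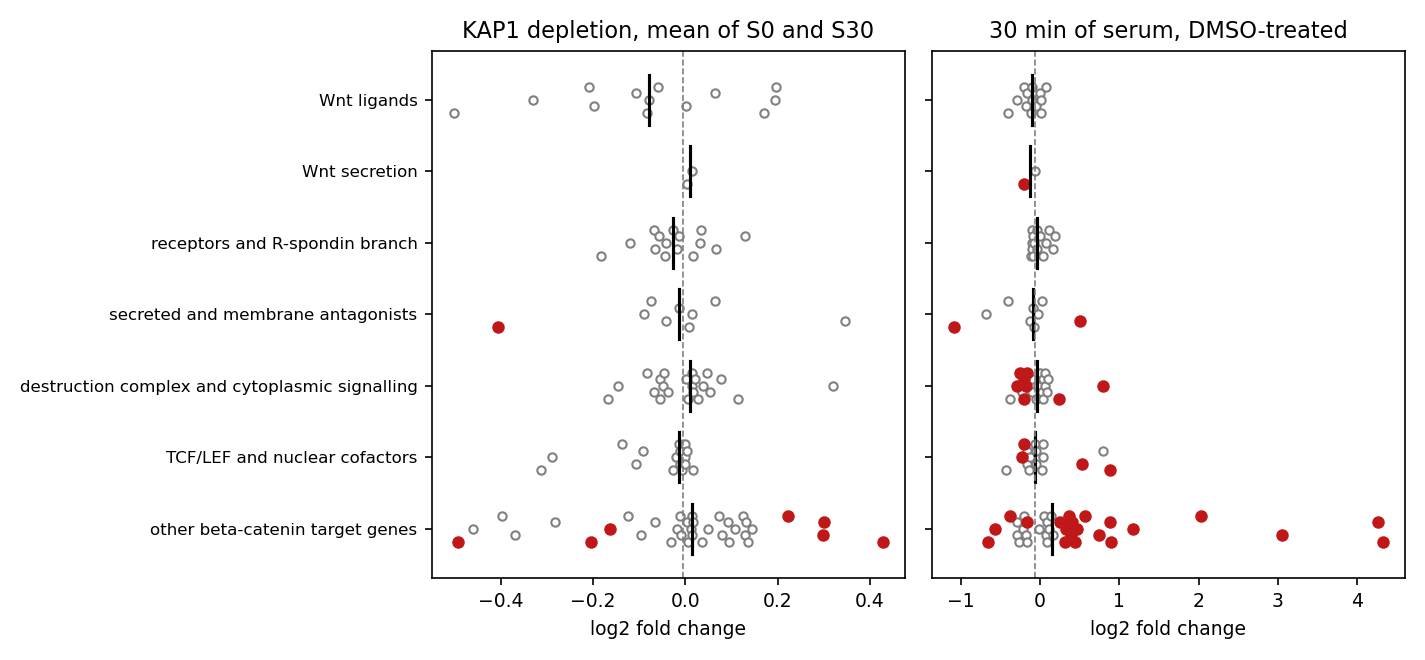
Log2 fold changes (horizontal axes, with different ranges) of the 113 tested genes in 7 other Wnt lists (rows), for KAP1 depletion averaged over serum levels (left) and for serum in DMSO-treated cells (right); filled red points have an adjusted p under 0.05, vertical bars are list medians and the dashed line is the median of all tested genes. Filled points on the left are confined to the antagonists (DKK1, at -0.41) and the other target genes, and on the right they reach 4.33 (EDN1).

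Serum called 36 of the 113 in DMSO-treated cells, 22 higher and 14 lower (31.9%), and 29 in dTAG-treated cells, 21 higher and 8 lower (25.7%), beside 26.1% and 24.3% of all tested genes. With TMM the DMSO counts were 25 higher and 3 lower and the dTAG counts 25 and 4, and with spike-in sizes they were 21 and 3, and 22 and 3, so most of the lower calls depended on the scaling. Of the 36 other target genes, 17 were higher and 4 lower with DMSO, where 9.15% of all tested genes were called higher and 17% lower. With dTAG 17 were higher and 2 lower, where 9.04% of all tested genes were called higher and 15.3% lower. The list medians were 0.15 and 0.19 on the log2 scale against -0.07 and -0.06 over all tested genes. Those called higher included EDN1 (4.33 and 4.14), JUN (4.26 and 3.32), FOSL1 (3.05 and 2.76) and PLAUR (2.03 and 1.75). These are known growth-factor-induced genes as well as Wnt targets. ID2 (1.17 and 1.18) was also called higher. JUN was the single gene of the 7 lists called in the interaction (-0.94, adjusted p = 0.000382, edgeR), where 0.0382% of all tested genes were called.

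Genes of the other lists were also called with serum. TLE3, a co-repressor that binds TCF factors, rose by 0.88 with DMSO and 0.85 with dTAG (adjusted p = 3.51e-11 and 4.33e-11, edgeR), and BCL9L, a beta-catenin co-activator, by 0.53 in both (adjusted p = 6.58e-07 and 4.64e-07). NKD2, the relative of NKD1, rose by 0.79 (adjusted p = 5.83e-06) and 0.38 (adjusted p = 0.0134, edgeR). APC, the scaffold of the destruction complex, fell by 0.25 with DMSO (adjusted p = 0.0110) and 0.40 with dTAG (adjusted p = 0.000158, edgeR), and RNF146, a ligase that degrades AXIN, by 0.30 (adjusted p = 0.0102) and 0.43 (adjusted p = 0.000274). For APC and RNF146 the DMSO calls were lost with TMM scaling, spike-in sizes and DESeq2. WLS, which carries Wnt ligands to the cell surface, fell by 0.20 and 0.19 (adjusted p = 0.00985 and 0.0111, edgeR), and both calls were lost in the same settings.

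The antagonist FRZB fell by 1.09 with DMSO (adjusted p = 0.00378, edgeR), from 1.88 ± 0.202 to 0.888 ± 0.150 CPM, and TCF7L1, a TCF factor that mostly represses, by 0.23 (adjusted p = 0.0377). The TCF7L1 call was lost with TMM, spike-in sizes and DESeq2. With dTAG the ligand WNT10B fell by 0.59 (adjusted p = 0.00245, edgeR) and the receptor RYK by 0.17 (adjusted p = 0.0313), and the RYK call was lost in those 3 settings and without the count minimum. None of these 4 genes was called in the interaction, so a difference between treatments was not shown for them.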

How the data were processed

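The authors trimmed the reads with Trim Galore 0.6.4, checked them with FastQC 0.11.8, mapped them to hg38 with STAR and counted them with featureCounts (Subread 1.6.3) over whole protein-coding genes, introns included, and over 92 ERCC transcripts. The deposited values are raw read counts, from 3 biological replicates per group. Strand setting and annotation release are not given in the sources used here. Antisense lncRNAs overlap further members, among them ZNRF3 (ZNRF3-AS1, 6478 bp), NKD1 (ENSG00000205414, 7609 bp) and SP5 (ERICH2-DT, 2728 bp), so their reads may be included. Start positions were converted to count from 1. Gene symbols (19802 of 19901 identifiers) and overlaps came from GENCODE v44, in which 6785 genes had the same start and end as in the table, so gene limits printed are those of the table.

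Counts were scaled by the upper quartile, with 1 factor of unwanted variation from the 69 ERCC transcripts that passed the minimum of 10 counts in 6 of 12 libraries. All 4 groups were fitted together with the quasi-likelihood F-test of edgeR 4.0.16 under R 4.3.3, a two-sided test, with Benjamini-Hochberg adjustment over 13093 genes and calls at an adjusted p under 0.05. The 95% intervals of the log2 fold changes come from this fit and include the spread between libraries. The CPM that corresponds to 3 counts covers counting error only. The pipeline was also run on simulated counts with known dTAG changes, no serum effect and spike-ins that followed library size. That run bears on neither the serum calls nor the choice of scaling. The alternatives were TMM scaling, spike-in library sizes, no factor or 2 factors, the likelihood ratio test, DESeq2 1.42.0, no count minimum, a replicate block, the 6 libraries compared alone, and leaving out each library.

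The members and gene lists were chosen with earlier results of these data known. The genes named were TRIM28, the 10 members, the 3 largest changes called in each list and comparison, and the 5 genes most correlated with NOTUM and with AXIN2 (log2 CPM, prior count 2). Promoters were to be shown for members called with depletion, and the 2 shown were chosen after the values were seen.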

Additional observations from a re-analysis of the deposited data

How the results depend on the processing

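Most member results kept their direction and their side of the threshold. The number of members called with dTAG at S30 was 0 in place of 1 with spike-in library sizes, and 0 to 1 with a library left out. With serum in DMSO-treated cells it was 2 in place of 3 with TMM scaling, spike-in library sizes and DESeq2, where ZNRF3 was not called. It stayed at 3 there with each library left out. With a library left out it was 1 to 2 in the average of serum levels (NOTUM, and TCF7 once). With serum in dTAG-treated cells it was then 2 to 3 (ZNRF3 joining once). Signs changed only for values near 0 that were not called in those settings: NOTUM with serum and DMSO was 0.0224 with TMM and 0.0117 in DESeq2, RNF43 with dTAG at S0 was 0.0159 with spike-in sizes, and the interaction of NKD1 was 0.0262 with no factor. With a library left out the log2 fold changes that crossed 0 ran, for serum with DMSO, from -0.23 to 0.0771 (NOTUM) and -0.0213 to 0.13 (TCF7), and for serum with dTAG from -0.000264 to 0.19 (NOTUM) and -0.21 to 0.00961 (ZNRF3, called once, at -0.21). For dTAG they ran at S0 from -0.0718 to 0.0163 (RNF43) and -0.0539 to 0.0708 (ZNRF3), at S30 from -0.11 to 0.0173 (AXIN2), and in the average from -0.0064 to 0.0400 (RNF43). In the interaction they ran from -0.0197 to 0.12 (AXIN2), -0.0261 to 0.0654 (NKD1) and -0.0036 to 0.17 (TCF7). The causes were not tested.

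The counts over all genes moved more. For dTAG at S0, 168 genes were called, against 76 with spike-in sizes, 283 with the likelihood ratio test and 308 without the count minimum. At S30, 159 were called, against 66, 266 and 306 in those settings and 267 with the 6 libraries alone. In the average 587 were called, against 258 with spike-in sizes. The serum counts of 3420 and 3184 became 1766 and 1646 with spike-in sizes. The interaction count of 5 was 3 with spike-in sizes, 8 with TMM, 9 with 2 factors, 10 with the likelihood ratio test, 11 in DESeq2 and 24 without the count minimum. Leaving out a library gave 111 (without dTAG-S0 replicate 3) to 299 (without dTAG-S30 replicate 3) at S0, 95 (without DMSO-S30 replicate 2) to 258 (without DMSO-S0 replicate 1) at S30, 360 (without DMSO-S30 replicate 2) to 914 (without dTAG-S30 replicate 1) in the average and 5 to 14 in the interaction.

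Same-numbered libraries of different groups had residual correlations from -0.153 to 0.139 (median 0.0327). Differently numbered ones ran from -0.199 to 0.256 (median -0.000203), and 6 of 12 libraries correlated best with their own number. Pairing by number was thus not shown, and these values cannot exclude it. With the replicate block the genes called were 173, 166, 626, 3500, 3247 and 7 in place of 168, 159, 587, 3420, 3184 and 5 (dTAG at S0, at S30 and averaged, serum with DMSO and with dTAG, interaction), and the members called numbered 1, 1, 1, 3, 2 and 0 as before. Depth limits SP5, LGR5, ASCL2 and APCDD1, for which no fold change could be resolved.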
